A study of Mus musculus with 6 samples.

Results

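The antioxidant, glutathione and iron handling genes of dopaminergic neurons were followed across 2 sorted populations of the substantia nigra pars compacta (SNc), a midbrain nucleus. The 43 genes were taken by symbol from a list that covers superoxide and peroxide removal, glutathione, thioredoxin, the NRF2 system and iron, and all 43 were found among the 23337 gene symbols measured. Poly(A) RNA was sequenced from neurons of adult C57BL/6 mice. Every mouse carried Th-2A-Flpo, which expresses the Flp recombinase from the tyrosine hydroxylase gene, Sox6-FSF-Cre, which expresses Cre from Sox6 once Flp has acted, and the reporter RC-Frepe. In this reporter Flp alone gives mCherry, and Flp with Cre gives GFP. The GFP population expresses Sox6 (Sox6+) and the mCherry population does not (Sox6-). Each group had 3 libraries, which carry the numbers 103, 825 and 1211 in both groups, and values are given in that order. A recombined reporter stays on, so the sort records recombinase activity in a cell's past as well as at the time of the sort. The labels do not say whether the libraries came from separate animals or how many animals each holds, so the p-values speak only of how far these samples spread, which may be technical.

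A dopamine neuron makes hydrogen peroxide when monoamine oxidase breaks down dopamine, and reactive quinones when dopamine oxidizes. Superoxide dismutases turn superoxide into peroxide, which catalase, the glutathione peroxidases and the peroxiredoxins remove. For the peroxidases and peroxiredoxins, glutathione and thioredoxin supply the electrons. Free ferrous iron turns peroxide into hydroxyl radicals, so ferritin storage and iron export belong to the same defence. The transcription factor NRF2, held down by KEAP1, drives many of these genes through antioxidant response elements (AREs). Loss of SNc dopamine neurons, with iron accumulation and glutathione depletion in that nucleus, is a feature of Parkinson disease.

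Sequences before the transcription start are shown for the 2 genes that 1 of the 3 tests separated between the groups, and for 4 of the genes with a match to the ARE core. They come from RefSeq on GRCm38.p6, run 5′ to 3′ on the gene's strand before the RefSeq transcription start, and hold no GENCODE M21 exon of the gene. In Sod2, Gpx3 and Txnrd1 a longer annotated transcript starts further upstream, so that these stretches lie within the annotated gene, in an intron of that transcript. Capitals mark the GC box GGGCGG in the stretches of Sod2 and Gpx3, and the 9-base ARE core, TGACNNNGC read on either strand, in the others. The stretches lie at chr17:13007589-13007816 (Sod2), chr11:54902604-54902771 (Gpx3), chr3:122245407-122245447 (Gclm), chr4:116685450-116685490 (Prdx1), chr16:90220690-90220730 (Sod1) and chr10:82859098-82859138 (Txnrd1), all on the plus strand.
Sod2: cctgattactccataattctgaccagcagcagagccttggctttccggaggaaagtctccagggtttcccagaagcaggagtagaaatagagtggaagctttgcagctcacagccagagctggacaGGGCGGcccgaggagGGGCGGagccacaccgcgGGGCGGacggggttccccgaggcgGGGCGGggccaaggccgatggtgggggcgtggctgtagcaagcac
Gpx3: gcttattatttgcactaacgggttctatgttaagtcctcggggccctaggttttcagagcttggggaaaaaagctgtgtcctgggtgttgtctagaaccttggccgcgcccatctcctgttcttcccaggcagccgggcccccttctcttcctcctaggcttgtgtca
Gclm: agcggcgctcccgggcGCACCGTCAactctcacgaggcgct
Prdx1: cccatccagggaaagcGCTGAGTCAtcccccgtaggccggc
Sod1: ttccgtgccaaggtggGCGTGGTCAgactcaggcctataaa
Txnrd1: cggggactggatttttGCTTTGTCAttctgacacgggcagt

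The stretch of Sod2 holds 4 GC boxes. That of Gpx3 holds none, and 1 lies nearer its start in sequence not shown. Over the 250 bases before each start, 36 of the 43 genes were matched, with 49 starts. The ARE core was found before 7 of these 49 starts (14.29%), in Sod1, Gclm, Txnrd1, Prdx1, Gstm5, Mgst1 and Nfe2l2, against 10.16% of 32851 starts of all genes. GC boxes on either strand were found before 63.27% of the members' starts against 32.74% of all, and the TATA box TATAAA before 14.29% against 12.37%. The 7 genes with an ARE core had a median log2 difference, Sox6+ minus Sox6-, of 0.09, and the 29 matched genes without one had a median of 0.20. A match describes these letters only.

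Across the libraries, between 10397924 and 12952768 reads were recovered in genes, and values are normalized read counts. Sox6 lay at 840.5, 461.2 and 389.0 in the Sox6+ libraries and at 103.6, 18.1 and 36.2 in the Sox6- libraries, so each Sox6+ library was above each Sox6- library. Of 10 dopaminergic markers, 9 or 10 had reads in each library. Their summed value ran from 102840.0 to 200037.2 in Sox6+ and from 37772.6 to 128691.6 in Sox6- neurons. Sox6+ library 825 stood apart from the other 5. It held a sum of 33929.8 over 18 macrophage and microglia markers, 13 of which were above 0, against sums of 23.2 to 42.5 elsewhere. Lyz2 alone lay at 26494.1 there. In the same library Tyrobp lay at 1035.1 and Csf1r at 58.1, while Tmem119 and Itgam were listed at 0 in all 6 libraries and Cx3cr1 reached at most 2.28. Its summed GABAergic markers were the lowest of the 6 libraries, at 765.2 against 3308.3 to 18207.5. Its summed oligodendrocyte markers were the highest, at 2106.6 against 263.9 to 392.3, with Mbp alone at 1943.8, while Olig2 and Sox10 were listed at 0 in all 6 libraries. Values without this library are therefore given beside the results that it moved most. In bulk samples such as these, fewer cells of a type and less RNA per cell cannot be told apart.

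Of the 43 members, 30 had a log2 difference under 0.5 in size and 6 had one over 1. Of the 13175 tested genes these counts were 8557 and 2317. With 3 libraries a group, a member that was not called may still differ. The 2 members that 1 of the 3 tests called were Sod2 and Gpx3. Sod2, the mitochondrial superoxide dismutase, was 1.5-fold higher in Sox6+ neurons, and Gpx3, the secreted glutathione peroxidase, was 3.21-fold lower, both on the log2(value + 1) scale. In the test across all genes (limma on log2(value + 1), Benjamini-Hochberg adjusted over 13175 genes with a mean of at least 10), 0 of 43 members passed an adjusted p of 0.05, as did 0.304% of all tested genes. At an unadjusted limma p under 0.05 there were 7 members (16.3%), namely Sod2, Prdx2, Prdx6, Msra, Nqo1 and Nqo2 higher and Gpx3 lower, beside 11.4% of all tested genes (5.21% higher and 6.17% lower). Without Sox6+ library 825 limma again called 0 members, with 4 at an unadjusted p under 0.05, beside 0.0683% and 9.88% of all genes. With edgeR's quasi-likelihood fit to recovered whole reads, 0 members passed an adjusted p of 0.05, beside 0.0455% of all genes, and 5 had an unadjusted p under 0.05, beside 10% of all genes. DESeq2 on those reads called Sod2 and Gpx3, beside 2.98% of all genes. The authors' deposited table, made with DESeq2, holds the same 2 members under 0.05, with adjusted p of 0.00243 and 1.07e-05, beside 2.83% of its genes.

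For 31 of the 43 members (72.1%) the unadjusted 95% interval of the difference lay within 2-fold in either direction, as it did for 43.6% of all tested genes. The members and all tested genes were not matched for expression level, so these shares do not show that the members are unusually stable. The wider intervals belonged to Gpx3, Gpx7, Gpx8, Gstm1, Mgst1, Mgst3, Nfe2l2, Nqo1, Nqo2, Hmox1, Ftl1 and Slc40a1. Of the members 28 had a positive log2 difference (65.1%), beside 48.1% of all tested genes, and their median was 0.20 beside -0.02. That count was 23 (53.5%) without Sox6+ library 825, and the median was then 0.05, while 49.3% of all genes were positive. The sign changed for 5 members when that library was left out, namely Fth1, Nfe2l2, Hmox1, Gclc and Prdx1. Without Sox6- library 1211 the median was 0.11. Sox6+ library 825 was the highest of the 6 libraries for 21 members (48.8%) beside 25% of all tested genes. The members' median level relative to each gene's own mean was 0.28 there on the log2 scale, and it lay between -0.16 and 0.06 in the other 5 libraries. The macrophage markers above were high in the same library, and their part in these levels was not tested.

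**Figure D1:**
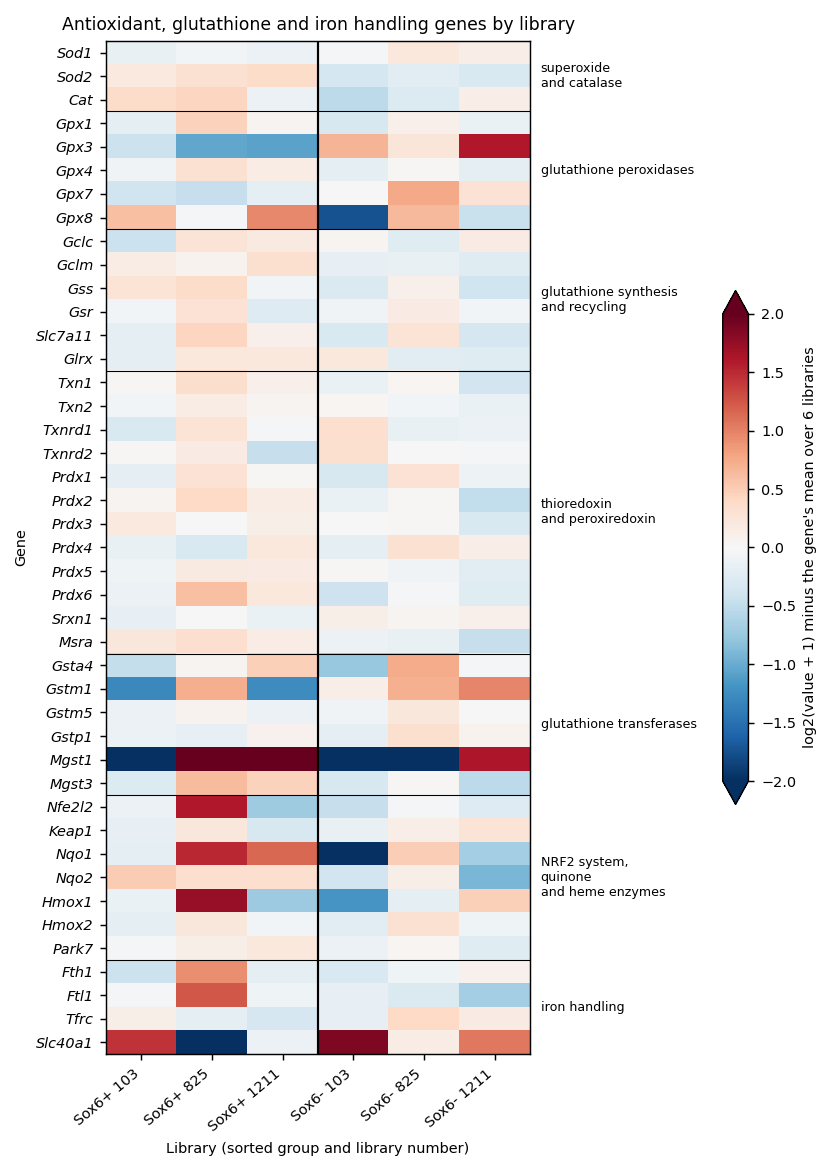
Level of the 43 genes in each library, as log2(value + 1) minus the gene's mean over the 6 libraries, with genes in rows ordered by role and the 3 Sox6+ libraries left of the line; colours stop at 2 in either direction. Sod2 is above its mean in all Sox6+ libraries and Gpx3 below it, while Nfe2l2, Hmox1, Fth1 and Ftl1 are highest in Sox6+ library 825.

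All 43 members passed the filter on the mean over 6 libraries, and 42 had a mean of at least 10 in both groups. The other was Mgst1, with a mean of 8.97 in Sox6- neurons. The 3 values of one group lay on one side of the 3 of the other for 10 members (23.3%), beside 17% of all tested genes (7.86% higher and 9.19% lower). Sod2, Gclm, Prdx2, Msra, Nqo2 and Ftl1 lay higher in Sox6+ neurons by this measure, and Sod1, Gpx3, Gpx7 and Srxn1 lower. An exact permutation test, 2-sided, gave 0.1 for each of these 10 genes, and no smaller p is possible among 20 splits of 6 libraries. Without Sox6+ library 825 it was 14 members (32.6%), beside 26.3% of all genes.

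**Figure D2:**
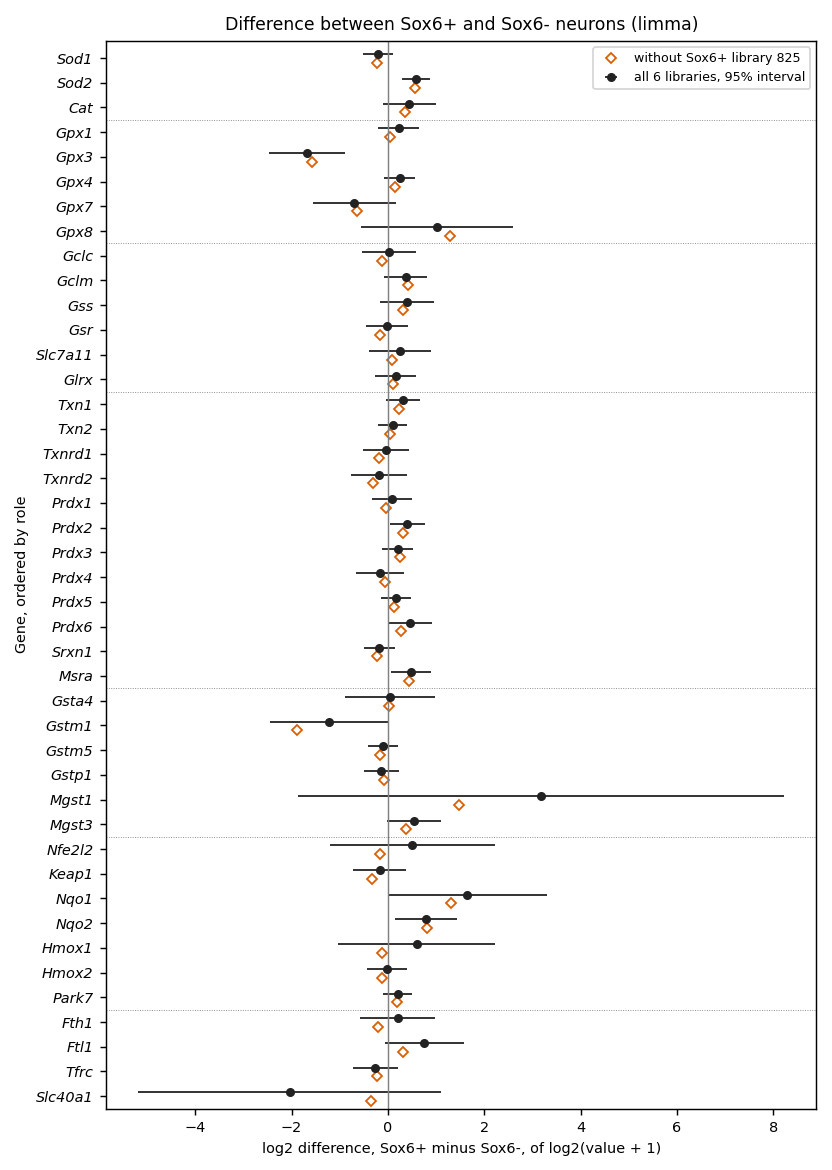
Log2 difference, Sox6+ minus Sox6-, of each of the 43 genes on the log2(value + 1) scale, with points and bars for the limma estimate and its unadjusted 95% interval over all 6 libraries and open diamonds for the estimate without Sox6+ library 825. The intervals of Sod2 (0.28 to 0.88) and Gpx3 (-2.47 to -0.90) lie away from 0. Those of Prdx2, Prdx6, Msra, Nqo1 and Nqo2 also leave out 0, with lower ends nearer to it. The diamonds of Gstm1, Mgst1, Fth1, Ftl1, Hmox1, Nfe2l2 and Slc40a1 lie apart from their points.

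Per kilobase of merged exons the genes spanned a wide range. Fth1, the ferritin heavy chain, had the highest mean level in both groups, at 5509.5 normalized reads per kilobase in Sox6+ and 4398.0 in Sox6- neurons. In Sox6+ neurons Ftl1, Txn1, Gpx4, Prdx2 and Gpx1 came next, at 4568.3, 4107.0, 3432.2, 3251.5 and 3195.4 per kilobase. This order of Sox6+ neurons rested on library 825. Without that library Txn1 came first, at 3833.8 per kilobase, then Fth1, Gpx4, Ftl1 and Prdx2, at 3804.5, 3218.9, 3065.9 and 3028.2. In Sox6- neurons the genes after Fth1 were Gpx3, Txn1, Gstm5, Gpx4 and Gpx1, at 3557.4, 3310.3, 3266.0, 2887.7 and 2703.9 per kilobase. Among these 6 genes of each group, every neighbouring pair in the order overlapped in the range of its 3 libraries. The rank of Gpx3 moved furthest between the groups, from 15 of 43 in Sox6+, with or without library 825, to 2 of 43 in Sox6- neurons. The lowest levels per kilobase were those of Slc40a1, at 2.8 in Sox6+ and 5.2 in Sox6- neurons, Nfe2l2, at 11.3 and 6.2, and Mgst1 in Sox6- neurons, at 4.5. Merged exons include every annotated transcript, so a gene with long unused exons has a lower level on this scale.

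**Figure D3:**
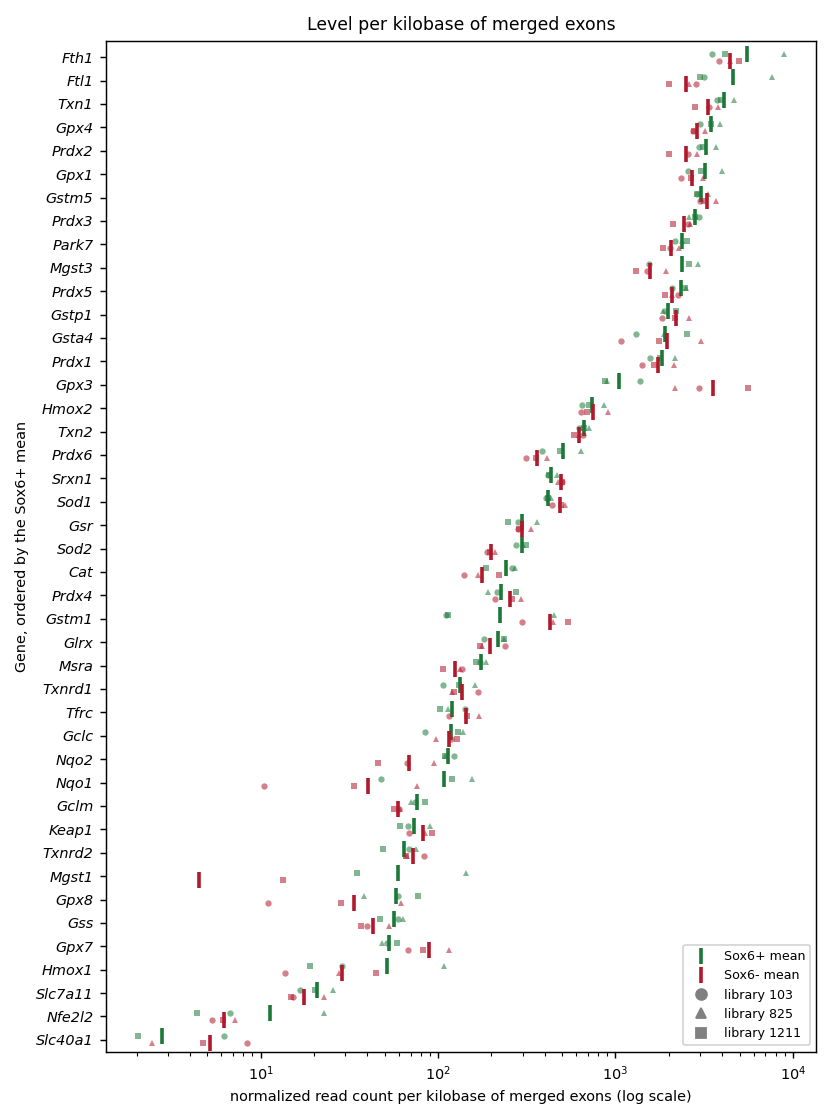
Normalized read count per kilobase of merged GENCODE M21 exons on a log axis, with genes ordered by the Sox6+ mean, a vertical tick for each group's mean and a symbol for each library; values of 0 (Mgst1 in 3 libraries and Slc40a1 in 1) are not drawn. Fth1 has the highest mean in both groups, in Sox6+ neurons through library 825 (triangle), and Gpx3 is the gene whose Sox6- libraries lie furthest right of its Sox6+ libraries.

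Among the enzymes that take superoxide and peroxide, the mitochondrial and the cytosolic dismutase lay on opposite sides. Sod2 had 2769.2, 3008.4 and 3125.3 normalized reads in the Sox6+ libraries and 1890.9, 2096.7 and 1959.7 in the Sox6- libraries. Every Sox6+ value was above every Sox6- value, and library 825 was not apart from its group. The means were 2967.7 ± 181.6 and 1982.4 ± 104.8 (SD, n = 3 each), and the log2 difference was 0.58 (standard error 0.13.) The adjusted p was 0.131 with limma and 0.00144 with DESeq2, and over 19 alternative settings it ran from 0.00144 to 0.497. Without Sox6+ library 825 the difference was 0.57 (limma, adjusted p = 0.236), and DESeq2 still called it, at 0.0111. Sod2 occupies chromosome 17, positions 13006846 to 13040063, plus strand (GRCm38, GENCODE M21).

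Sod1, the cytosolic copper-zinc dismutase, had 1610.0, 1718.3 and 1649.5 reads in Sox6+ and 1752.7, 2057.4 and 1960.6 in Sox6- libraries. The groups did not overlap, but the log2 difference was small, at -0.21 with an interval of -0.52 to 0.10. Catalase (Cat), the peroxisomal enzyme, had 685.6, 710.5 and 486.1 against 368.4, 439.1 and 578.7. Sox6+ library 1211 lay below Sox6- library 1211, so the groups overlapped, and the log2 difference of 0.45 had an adjusted p of 0.514 (limma). It was 0.35 without Sox6+ library 825.

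The glutathione peroxidases included Gpx3, the larger of the differences that DESeq2 called with all 6 libraries. Gpx3 had 2477.2, 1623.8 and 1587.6 reads in Sox6+ and 5329.2, 3944.7 and 10074.7 in Sox6- libraries. Each Sox6- value was above each Sox6+ value, and the Sox6- libraries spread more widely. The means were 1896.2 ± 503.5 and 6449.5 ± 3214.9 (SD, n = 3 each), and the log2 difference was -1.68 (standard error 0.34.) The adjusted p was 0.115 with limma, 0.168 with edgeR and 9.3e-06 with DESeq2, and over 19 alternatives it ran from 9.3e-06 to 0.364. Without Sox6+ library 825 the difference was -1.59, and the adjusted p was 0.274 with limma and 0.00183 with DESeq2. Gpx3 occupies chromosome 11, positions 54902453 to 54910377, plus strand.

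Levels of other cell type markers differed between the same libraries. The summed GABAergic markers were 9512.0, 765.2 and 3308.3 in Sox6+ and 18207.5, 5290.1 and 13929.2 in Sox6- libraries. Within this sum Sst lay at 1.97, 0.0 and 0.0 in Sox6+ against 3958.3, 3164.2 and 5814.1 in Sox6- libraries. Pvalb had the higher mean in Sox6+ neurons, at 423.1 against 85.0. Gad1 overlapped, with 4797.5, 0.0 and 1244.8 in Sox6+ against 7647.0, 508.6 and 2636.7 in Sox6- libraries. The dopaminergic sum was lowest in Sox6- libraries 103 and 1211, at 42317.8 and 37772.6. In Sox6- library 825 the dopaminergic sum of 128691.6 lay within the range of the Sox6+ libraries. Gpx3 was at 3944.7 there, above all Sox6+ libraries and below the other Sox6- libraries. The part of these markers in the Gpx3 values was not tested.

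The other glutathione peroxidases did not separate the groups in any test. Gpx1, the cytosolic form, had means of 4604.6 ± 1061.1 in Sox6+ and 3896.4 ± 581.5 in Sox6- neurons (SD, n = 3 each), and Gpx4, which reduces lipid peroxides in membranes, had 5917.0 ± 761.4 and 4978.4 ± 444.2. Their log2 differences were 0.23 and 0.24, and 0.05 and 0.16 without Sox6+ library 825. Both enzymes of the endoplasmic reticulum were low. Gpx7 had 66.1, 62.6 and 75.8 reads in Sox6+ and 87.3, 148.0 and 106.7 in Sox6- libraries, without overlap (log2 difference -0.70, limma adjusted p = 0.513). Gpx8 had 62.2, 39.9 and 80.4 against 11.5, 64.5 and 29.7, with overlap.

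The genes that make and recycle glutathione lay close together in the 2 groups. Gclm, the modifier subunit of glutamate-cysteine ligase, had 468.6, 445.2 and 530.4 reads in Sox6+ and 378.9, 382.7 and 356.1 in Sox6- libraries. The groups did not overlap, and the log2 difference was 0.37 (standard error 0.20), not past the threshold (limma, adjusted p = 0.51). Gclc, the catalytic subunit of the same ligase, had a log2 difference of 0.01 with an interval of -0.55 to 0.57. Glutathione synthetase (Gss) had 351.2, 374.6 and 278.2 against 236.0, 311.2 and 218.9, with overlap (log2 difference 0.39, adjusted p = 0.585 with limma). Glutathione reductase (Gsr) had means of 819.2 ± 159.7 and 823.8 ± 78.6 (SD, n = 3 each), and its interval ran from -0.46 to 0.41. The cystine transporter Slc7a11 and glutaredoxin (Glrx) had log2 differences of 0.24 and 0.16. In this group 5 of 6 differences were positive, with a median of 0.20, and 4 of 6 without Sox6+ library 825.

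Thioredoxins, peroxiredoxins and their partners formed the largest group, and all 12 had log2 differences under 0.5 in size. Prdx2, a cytosolic peroxiredoxin, had 8970.4, 11278.8 and 9501.7 reads in Sox6+ and 7824.5, 8770.5 and 6109.0 in Sox6- libraries. The groups did not overlap, and the log2 difference was 0.40 (standard error 0.16), not past the threshold (limma, adjusted p = 0.407). Without Sox6+ library 825, its highest library, the difference was 0.30. Msra, which repairs oxidized methionine, had 741.9, 798.2 and 703.2 against 585.2, 570.0 and 459.1. Its groups also did not overlap, at a log2 difference of 0.48 with a standard error of 0.18 (limma, adjusted p = 0.384).

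Prdx6, a peroxiredoxin that acts on phospholipid peroxides, had 1861.6, 3073.3 and 2331.5 reads in Sox6+ and 1511.0, 1982.9 and 1713.0 in Sox6- libraries, with overlap, and its log2 difference of 0.46 was 0.27 without Sox6+ library 825. The mitochondrial Prdx3 had a log2 difference of 0.20, and its mitochondrial partners Txn2 and Txnrd2 had 0.10 and -0.18. Cytosolic thioredoxin (Txn1) had 3937.2, 4890.7 and 4121.5 against 3526.6, 3957.8 and 2953.0, with a log2 difference of 0.32 and an interval of -0.04 to 0.67, and a difference of 0.22 without Sox6+ library 825. Thioredoxin reductase 1 (Txnrd1) had -0.04, and the cytosolic Prdx1 had 0.09. Prdx4, the form of the endoplasmic reticulum, had -0.17, and Prdx5 had 0.17. Sulfiredoxin (Srxn1), which restores overoxidized peroxiredoxins, had 1168.0, 1314.1 and 1188.4 reads in Sox6+ and 1414.1, 1345.4 and 1402.3 in Sox6- libraries. Its groups did not overlap, and the log2 difference was -0.18 (limma, adjusted p = 0.661).

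**Figure D4:**
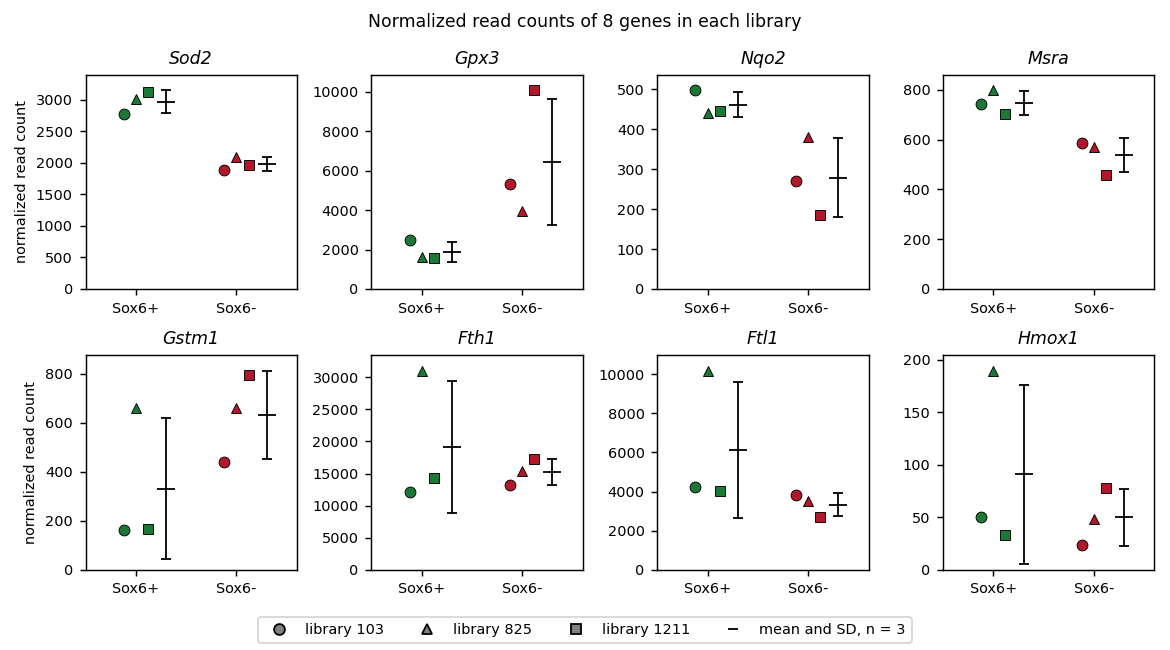
Normalized read count of 8 genes in each library on linear axes from 0, with circles, triangles and squares for libraries 103, 825 and 1211, and the mean with SD (n = 3) beside each group. Sod2, Nqo2 and Msra lie higher and Gpx3 lower in Sox6+ neurons without overlap, and Sox6+ library 825 (triangle) lies apart from its group in Gstm1, Fth1, Ftl1 and Hmox1.

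Of the glutathione transferases, which couple glutathione to reactive compounds, Gstm1 depended on a single library. It had 163.8, 661.6 and 167.3 reads in Sox6+ and 438.4, 658.6 and 793.9 in Sox6- libraries. Sox6+ libraries 103 and 1211 lay below all Sox6- libraries, and Sox6+ library 825 lay among them. With all 6 libraries the log2 difference was -1.22 (standard error 0.54), not past the threshold (limma, adjusted p = 0.446). Without library 825 it was -1.88 with a standard error of 0.29, at an adjusted p of 0.0831 with limma, 0.111 with edgeR and 3.57e-06 with DESeq2, which then called 2.74% of all genes. Over 19 alternatives the adjusted p ran from 3.57e-06 to 0.869. Astrocytes also express this gene. Of 9 astrocyte markers, Gja1 was listed at 0 in all libraries and Aqp4 reached at most 4.62. Slc1a3 lay at 75.8 and 24.1 in Sox6- libraries 103 and 1211 and was at 0 elsewhere, and Aldoc, which neurons also express, lay at 2958.6, 2723.8 and 3072.7 in Sox6+ against 3858.5, 4315.3 and 7044.8 in Sox6- libraries. Other astrocyte markers went both ways. The means in Sox6+ and Sox6- neurons were 672.9 and 430.8 for Slc1a2, 45.0 and 3.53 for S100b, and 41.6 and 46.8 for Sox9. S100b was highest in Sox6+ library 825, at 102.5. Gfap and Aldh1l1 reached at most 21.3 and 5.56. Their means were higher in Sox6- neurons, at 1.14 against 10.13 for Gfap and 0.0 against 2.86 for Aldh1l1. The sum over the 9 markers ran from 3430.1 to 4103.0 in Sox6+ and from 4327.6 to 7495.5 in Sox6- libraries. Aldoc made up most of each sum. The part of these markers in the Gstm1 values was not tested. Gstm1 occupies chromosome 3, positions 108012255 to 108017973, minus strand, within a cluster of similar genes, and reads shared between them could have been split or dropped in counting.

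Mgst1, a membrane-bound transferase, was listed at 0 in Sox6+ library 103 and in Sox6- libraries 103 and 825. It had 290.4 and 70.2 reads in Sox6+ libraries 825 and 1211 and 26.9 in Sox6- library 1211, and its interval ran from -1.87 to 8.23, so no difference was detectable. The log2 difference was 3.18 with and 1.48 without Sox6+ library 825. Mgst3, a related membrane enzyme, had 1705.7, 3207.7 and 2845.3 against 1650.1, 2105.8 and 1428.3, with overlap, and a log2 difference of 0.55 with a standard error of 0.25 (limma, adjusted p = 0.446), or 0.37 without Sox6+ library 825. Gsta4, which clears the lipid peroxidation product hydroxynonenal, varied more within groups than between them. It had 1650.5, 2375.3 and 3196.5 reads in Sox6+ and 1351.7, 3826.8 and 2237.9 in Sox6- libraries. Gstm5 and Gstp1, a mu and a pi class enzyme, had log2 differences of -0.11 and -0.14.

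In the NRF2 system 5 of 7 genes had a positive log2 difference with all libraries and 3 of 7 without Sox6+ library 825. Nqo2, a quinone reductase, had 497.2, 441.8 and 444.5 reads in Sox6+ and 269.6, 381.7 and 184.6 in Sox6- libraries. The groups did not overlap, and the log2 difference was 0.78 (standard error 0.28), not past the threshold (limma, adjusted p = 0.346). It was 0.81 without Sox6+ library 825. Nqo2 occupies chromosome 13, positions 33964687 to 33988443, plus strand, and overlaps Serpinb6a on the other strand, a gene with a mean of 1227.3 reads. The kit keeps strand, but the strand setting of the counting is not given in the sources used here.

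Nqo1, the NADPH-dependent quinone reductase and a classical NRF2 target, had 74.0, 240.3 and 186.7 reads in Sox6+ and 16.3, 118.8 and 51.9 in Sox6- libraries. The groups overlapped, since Sox6- library 825 exceeded Sox6+ library 103. The log2 difference was 1.65 (standard error 0.73), not past the threshold (limma, adjusted p = 0.438), and 1.31 without Sox6+ library 825. Nfe2l2, the gene of NRF2 itself, had 25.6, 86.5 and 16.6 against 20.1, 27.2 and 23.2. Its difference rested on Sox6+ library 825, at 0.50 with and -0.17 without that library. Hmox1, the inducible heme oxygenase, behaved likewise, with 50.3, 189.0 and 33.3 against 24.0, 48.3 and 77.9, and log2 differences of 0.59 with and -0.13 without Sox6+ library 825. Both genes were over 4-fold higher in that library than in the mean of the other Sox6+ libraries.

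Keap1, the inhibitor of NRF2, had means of 342.9 ± 70.9 in Sox6+ and 384.7 ± 56.7 in Sox6- neurons (SD, n = 3 each). Hmox2, the constitutive heme oxygenase, had 1635.5 ± 241.9 and 1656.6 ± 317.1, with an interval of -0.43 to 0.40. Park7, the gene of the redox-sensitive protein DJ-1 that is mutated in a recessive form of Parkinson disease, had 5348.9, 5901.9 and 6308.9 reads against 5027.0, 5621.4 and 4618.6. Its groups overlapped, and the interval of its log2 difference ran from -0.10 to 0.51.

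Both ferritin genes were highest in Sox6+ library 825. Ftl1, the ferritin light chain, had 4210.5, 10148.1 and 4006.0 reads in Sox6+ and 3799.0, 3497.5 and 2679.4 in Sox6- libraries. All Sox6+ values were above all Sox6- values, with library 825 at 2.47 times the mean of the other Sox6+ libraries. The log2 difference was 0.75 (standard error 0.35), not past the threshold (limma, adjusted p = 0.465), and without that library it was 0.32 with a standard error of 0.18 (adjusted p = 0.603). Fth1 had 12112.5, 30941.8 and 14283.0 against 13255.3, 15316.4 and 17198.4, and its log2 difference changed sign, from 0.21 with library 825 to -0.21 without it. Macrophages and oligodendrocytes are rich in ferritin, and the marker sums of both were highest in library 825, at 33929.8 and 2106.6. The part of these markers in the ferritin values was not tested. By name, both ferritin genes have processed pseudogene copies in GENCODE M21, and so do Gpx4, Txn1 and Prdx6. For each of these genes, reads shared with such copies could have been dropped or split in counting.

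The transferrin receptor (Tfrc), which takes iron up, had 873.1, 701.4 and 636.7 reads in Sox6+ and 714.7, 1050.4 and 899.6 in Sox6- libraries, with overlap and a log2 difference of -0.26. Slc40a1, the iron exporter ferroportin, was low throughout, with 56.2, 0.0 and 18.5 against 75.8, 22.2 and 42.7. Its log2 difference of -2.04 came with a standard error of 1.39. Without Sox6+ library 825, where it was listed at 0, the difference was -0.35.

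Of the same pathways, 106 other genes that are not members were also measured. The table held all of them, 5 under an older symbol, and 87 had a mean of at least 10. Limma called 0 of the 87 and edgeR called 0, with 8 and 9 at an unadjusted p under 0.05, and DESeq2 called 1. The 8 of limma are 9.2% of the 87, beside 11.4% of all tested genes. Their median log2 difference was 0.08, and 50 of 87 were positive (57.5%, beside 48.1% of all). Sox6+ library 825 was the highest for 31.0% of them, and without it the median was 0.10 and 55 were positive (63.2%). The gene that DESeq2 called was Blvrb, biliverdin reductase B. Blvrb had 240.7, 482.8 and 235.6 reads in Sox6+ and 90.2, 111.8 and 125.2 in Sox6- libraries, without overlap. Its log2 difference was 1.47 with all libraries and 1.13 without Sox6+ library 825, with adjusted p of 0.147 and 0.266 (limma) and of 0.0133 and 0.0413 (DESeq2).

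A pair of mu class transferases from the cluster around Gstm1 also had lower values in Sox6+ neurons. Gstm4 had 121.3, 39.9 and 111.8 reads in Sox6+ and 205.3, 197.4 and 230.9 in Sox6- libraries, and Gstm7 had 91.7, 0.0 and 8.32 against 183.2, 290.0 and 396.9. Neither gene's groups overlapped, and both had an adjusted p above 0.05 with all 6 libraries (limma, 0.291 and 0.285). Gstm7 passed without Sox6+ library 103, at 0.0148. Both were lowest in Sox6+ library 825, where Gstm1 was the highest of the Sox6+ libraries. Gstm6, another gene of this class, had 562.3, 992.9 and 629.3 against 597.7, 1018.1 and 1064.7, with overlap (log2 difference -0.29, limma adjusted p = 0.728). Glrx3, a glutaredoxin that carries iron-sulfur clusters, had 532.7, 550.0 and 539.7 against 392.4, 328.3 and 345.9, without overlap and with a log2 difference of 0.61 (limma, adjusted p = 0.278). Slc1a1, the transporter that brings cysteine into neurons, had 260.4, 429.3 and 465.8 against 680.2, 442.1 and 683.5, with overlap (log2 difference -0.66, limma adjusted p = 0.423). Selenow, the gene of selenoprotein W, had 8865.9, 13330.7 and 10946.1 against 6933.2, 9867.2 and 6582.0, also with overlap (log2 difference 0.51, limma adjusted p = 0.385).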

How the data were processed

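Reads were processed by the authors with FastQC, cutadapt, STAR, HTSeq and DESeq2 on mm10 (GRCm38), per the submitters' processing notes; versions, settings and strand mode were not given in the sources used here. Cells were dissociated with papain and RNA was prepared with mirVana and stranded TruSeq mRNA kits, per the labels' protocols. The authors deposited 1 table with a signal per gene and library, in which gene counts were scaled by size factors. The same deposited table gives the authors' mean, log2 fold change (Sox6- over Sox6+), standard error, test score, p-value and adjusted p-value. Dividing by a step of 0.9241 to 1.1387 turned 100.0% of the values above 0 into whole numbers within 0.01, which were taken as reads. In Sox6- library 825 the step was 1.0071, close to 1, so wholeness is a weaker check there.

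Limma (trend, robust, no block) was fitted to log2(value + 1) over 13175 genes with a mean of at least 10, 2-sided, with Benjamini-Hochberg adjustment at 0.05. EdgeR with TMM and DESeq2 were run on the recovered reads. Fold changes understate low genes. Intervals are limma's 95% intervals, not adjusted. Positions and exon lengths are from GENCODE M21 (GRCm38). Members and lists were chosen with earlier results of these data known. Values in every library are given for the 2 members of smallest p in each role, those called with limma (all libraries, blocked or without Sox6+ library 825), edgeR or DESeq2, and those over 4-fold apart in Sox6+ library 825, which makes 17, and for further members chosen after their values were seen. Of the 106 related genes the 3 of smallest p in each direction are named, with a few others chosen after their values were seen. Further settings were other pseudocounts, filters and normalizations, a replicate block, and leaving out each library. The limma and edgeR fits were tested on simulated data, and the DESeq2 fit was not. Versions were DESeq2 1.42.0, edgeR 4.0.16 and limma 3.58.1 in R 4.3.3, and matplotlib 3.10.9, pandas 2.3.3 and numpy 2.4.6 in Python 3.11.15.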

Additional observations from a re-analysis of the deposited data

How the results depend on the processing

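The count of members called was 0 with limma and stayed 0 in all 6 fits that left out 1 library. It was 2 with DESeq2 (Sod2 and Gpx3), 3 with DESeq2 without Sox6+ library 825 (also Gstm1), an alternative chosen after seeing the data, and 1 (Sod2, adjusted p = 0.0394) with the library number as a replicate block, where 2.03% of all genes were called. The count of related genes called was 1 with DESeq2, 2 with DESeq2 without Sox6+ library 825, 1 with the block, and 0 to 1 when leaving out 1 library. Over all genes limma called 40, and 267 with the block, 24 without trend and robust moderation, 21 without the filter, 69 with a pseudocount of 8, 69 with quantile normalization, and 1 to 161 when leaving out 1 library. EdgeR called 6, 120 with the block and 1 without Sox6+ library 825, and DESeq2 called 387 and 358. Correlations of the deviations of same-numbered libraries were 0.268, 0.172 and 0.079; the last is under 0.1, so the numbers were not taken to pair the samples, although each Sox6+ library correlated best with the Sox6- library of its own number. The members' median difference of 0.20 ran from 0.05 to 0.28 when leaving out 1 library. Of the 5 members that changed sign without Sox6+ library 825, those named by the rule were Hmox1 (range over left-out libraries -0.13 to 1.10, and -0.27 with edgeR and -0.26 with DESeq2 without that library) and Nfe2l2 (-0.17 to 0.99, and -0.16 and -0.15). The causes were not tested. Among named members, 309 alternative values kept their direction and their side of the threshold, 6 passed it only under the alternative, and 6 reversed. Counts are limited to 3 libraries a group, and genes near 0 in some libraries, such as Mgst1 and Slc40a1, have intervals too wide to place.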

Other observations

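Some other genes of these pathways, chosen after their values were seen, were also high in Sox6+ library 825. Transferrin (Trf) had 473.7 reads there, against 0.0 and 44.4 in Sox6+ libraries 103 and 1211 and 12.5, 0.0 and 152.1 in the Sox6- libraries. Oligodendrocytes express this gene, and their marker sum was also highest in that library; its part was not tested. Hfe, a regulator of iron uptake, had 417.9, against 43.4 and 85.0 in the other Sox6+ libraries and 67.2 to 213.5 in the Sox6- libraries. Txnip, the thioredoxin-interacting protein, had 269.9 there and at most 17.6 in the other 5 libraries. A gene with the opposite pattern, Steap4, a ferric reductase, was at 45.4 and 38.8 in Sox6+ libraries 103 and 1211 and was listed at 0 in the other 4.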
